A study of Drosophila melanogaster with 6 samples.

Results

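S-Lap5, S-Lap7 and S-Lap8 encode sperm leucyl aminopeptidases, and their transcript levels in courting and unexposed males are described here. The family was taken by name as the 8 genes S-Lap1, S-Lap2, S-Lap3, S-Lap4, S-Lap5, S-Lap7, S-Lap8 and loopin-1, and a gene counted as measured when a probe set (a group of array probes for a transcript) was annotated to it alone. By this rule 3 of the 8 genes were measured, each by 1 probe set, out of 10844 genes with a probe set of their own and 13966 probe sets in all. No probe set shared with other genes was annotated to any of the 8. S-Lap1, S-Lap2, S-Lap3, S-Lap4 and loopin-1 are not analysed here.

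Leucyl aminopeptidases remove amino acids one at a time from the front end of peptides. In Drosophila several copies of the gene are used in the testis, and their proteins are among the most abundant ones of mature sperm. Several of these proteins have lost residues that the enzyme needs to work, and the family is found in the mitochondrial derivatives, the elongated organelles that run along the sperm tail. Transcripts of such late sperm genes are made in spermatocytes, stored, and used during spermatid elongation.

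Whole-body RNA came from Canton-S males, a wild-type laboratory strain, aged 4 days and virgin. All males were aged at 25 °C and were moved singly to new vials on day 3. The courtship observation was made at a lower temperature. For 3 exposed pools each male had spent 5 min courting a virgin female without mating, and for 3 unexposed pools the males had been mock-exposed, with no female. A pool held about 12 males and was hybridized to 1 array. Only males that courted robustly were kept in exposed pools, so exposure and this choice of males cannot be told apart. Exposed and unexposed groups had been collected in parallel, and pools of the same replicate number were treated as pairs 1 to 3. That the replicate numbers match the parallel collections is assumed, since the labels do not say so. Because each array reads a whole body, fewer sperm-forming cells and less RNA in each of them cannot be told apart.

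In the reference gene list the family lies on 2 chromosome arms, 3L with 4 members and 2R with the other 4. S-Lap1 and S-Lap2 were direct neighbours, with 0 genes between them, and S-Lap3 and S-Lap4 were separated by 2 genes. S-Lap8 and loopin-1 were likewise separated by 2 genes, and S-Lap5 and S-Lap7 by 12. The 3 measured genes thus all came from 2R, where 434 genes lie between S-Lap7 and S-Lap8.

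Signals were read as deposited, on a linear intensity scale, and log2 ratios are exposed over unexposed within a pair. Labelling and hybridization were done at the University of Kentucky or at Texas A&M University, and which arrays went to which facility is not given. The arrays of replicate 1 stood apart from the other 4. The ratio of 3′ to 5′ signal of the actin control, a measure of how complete the labelled RNA was, was 17.8 for exposed 1 and 5.79 for unexposed 1, while the others had 2.19 to 2.36. The same ratio of the eIF-4a and GAPDH controls was 11.3 and 5.80 for exposed 1 and 2.0 and 1.93 for unexposed 1, which by these controls was nearer to the others, at 1.65 to 1.95 and 1.30 to 1.52. Bacterial, yeast and mouse control probe sets, which match no fly RNA, had a median of 80.1 and 81 on these arrays and of 22.9 to 31.3 on the others. Over the 8251 probe sets tested, 57.2% were lower on both replicate 1 arrays than on the other 4 and 28% were higher on both.

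S-Lap7 (CG13340, probe set 147169_at) gave a signal of 1932 in the first exposed pool, 1718 in the second and 2226 in the third. The unexposed pools, in the same order, gave 2820, 2233 and 2026. The highest of the 6 values was unexposed 1 and the lowest exposed 2, and the ranges of the treatments overlapped. The means were 1959 ± 255 in exposed and 2359 ± 412 in unexposed pools (SD, n = 3 each). The log2 ratio was -0.55 in pair 1, -0.38 in pair 2 and 0.14 in pair 3, so exposed males had the lower signal in 2 pairs and the higher in the third. The mean log2 fold change was -0.26 (standard error 0.18, 95% confidence interval -0.73 to 0.21, adjusted p = 0.905 from limma).

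S-Lap8 (CG4439, probe set 152130_at) gave nearly the same picture. The 3 exposed pools read 2362, 2026 and 2648, and the 3 unexposed pools 3238, 2691 and 2299. Unexposed 1 was again the highest and exposed 2 the lowest, with overlapping treatments. The means were 2345 ± 312 and 2743 ± 471 (SD, n = 3 each). Pairs 1 to 3 had log2 ratios of -0.45, -0.41 and 0.20. The mean was -0.22 (standard error 0.18, 95% confidence interval -0.70 to 0.26, adjusted p = 0.905 from limma).

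S-Lap5 (CG18369, probe set 147161_at) had the mean ratio nearest 0. Replicates 1 to 3 read 1046, 430 and 493 after exposure, and 1217, 509 and 471 with no exposure. Here the replicate number, not the treatment, divided the arrays: both replicate 1 arrays lay far above the other 4. The means of 656 ± 339 and 732 ± 421 (SD, n = 3 each) carry that gap in their errors. Within pairs 1 to 3 the log2 ratio was -0.22, -0.24 and 0.07, with a mean of -0.13 (standard error 0.13, 95% confidence interval -0.49 to 0.22, adjusted p = 0.908 from limma).

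**Figure D1:**
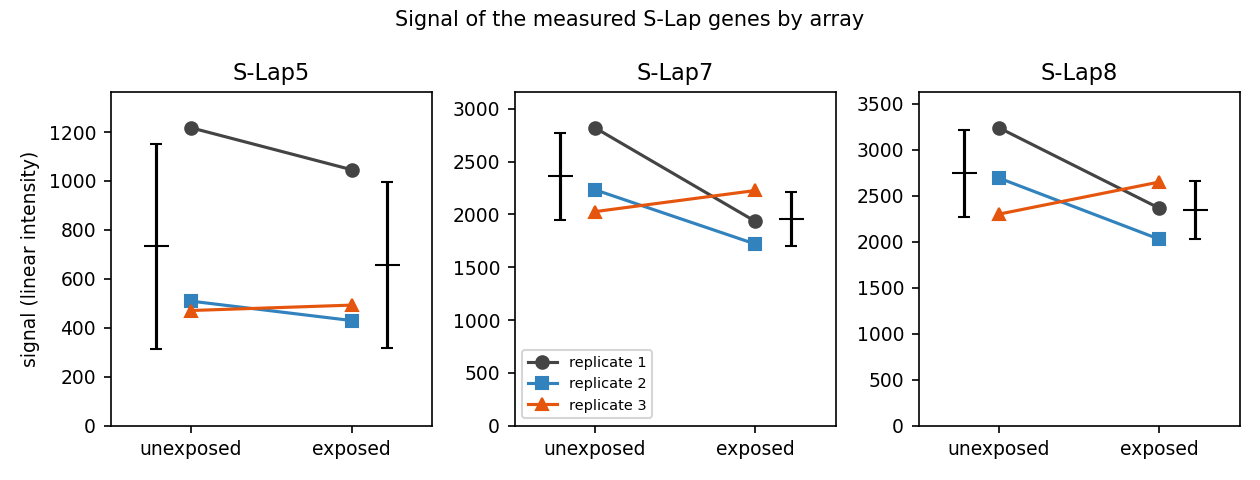
Signal on a linear intensity scale for S-Lap5, S-Lap7 and S-Lap8 in unexposed and exposed pools. Lines join the arrays of one replicate number, and the horizontal bars with whiskers give the mean ± SD of 3 pools. Replicates 1 and 2 slope down from unexposed to exposed for all 3 genes and replicate 3 slopes up, and for S-Lap5 the replicate 1 arrays (1046 and 1217) stand above the rest (430 to 509).

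None of the 3 genes was called between treatments. Limma, blocked by replicate, found 0 of 3 past an adjusted p of 0.05 and 0 of 3 past an unadjusted p of 0.05, and the paired Cyber-T test also found 0 of 3 at either level. Over all probe sets, limma called 0 (0%) after adjustment, 206 (2.5%) at an unadjusted p under 0.05, and 2 (0.0242%) at the study's stricter unadjusted threshold of 0.001. The study set that threshold on paired Cyber-T tests and required it for at least 2 of its 3 ways of computing signal. The count from limma is thus not comparable with the study's gene list. The treatments overlapped for 3 of 3 genes, which was the usual case, since only 2.01% of all probe sets had treatments that did not overlap. The intervals still allow S-Lap7 a change from -0.73 to 0.21 on the log2 scale, so the missing call does not show that the level stayed equal. The median log2 fold change was -0.22 for the 3 genes and -0.09 for all probe sets tested. Of the latter, 17% lay below S-Lap7, 23.1% below S-Lap8 and 38.7% below S-Lap5.

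The size of the difference depended on which pair was counted. With pairs 1 and 2 alone the log2 fold change was -0.46 for S-Lap7, -0.43 for S-Lap8 and -0.23 for S-Lap5, none of them called (adjusted p between 0.705 and 0.708 from limma). With pairs 2 and 3 alone, so without the replicate 1 arrays, the values were -0.12, -0.10 and -0.09. Array-wide shifts were part of the ratios as well, since the median log2 ratio of all probe sets was -0.21, -0.08 and 0.05 in pairs 1 to 3. Relative to these medians S-Lap7 had -0.33, -0.29 and 0.08, and S-Lap8 had -0.24, -0.33 and 0.15. S-Lap5 had -0.01, -0.16 and 0.01, so that its ratio in pairs 1 and 3 was close to that of the middle probe set of the array.

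S-Lap7 and S-Lap8 followed each other closely from array to array. The log2 signal of S-Lap8 minus that of S-Lap7 varied only between 0.18 and 0.29 over the 6 arrays, with an SD of 0.04. This difference says nothing of their relative abundance, since probe sets differ in brightness. By this SD, S-Lap8 ranked 2 among the 8250 other probe sets in closeness to S-Lap7, and S-Lap7 ranked 2 in closeness to S-Lap8. Their log2 signals had a Pearson r of 0.986 over 6 arrays. S-Lap5 had an r of 0.555 with S-Lap7 and 0.592 with S-Lap8 over the same arrays. Over the 4 arrays of replicates 2 and 3 these values were 0.985 and 0.982, and that of S-Lap7 with S-Lap8 was 0.983. Such values were common on these 4 arrays, where by r the members ranked between 174 and 333 among the 8250 probe sets set against each other member. All probe sets of an array share its hybridization and scaling, so these are descriptions of the arrays. Whether these probe sets also bind transcripts of other family members was not tested.

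**Figure D2:**
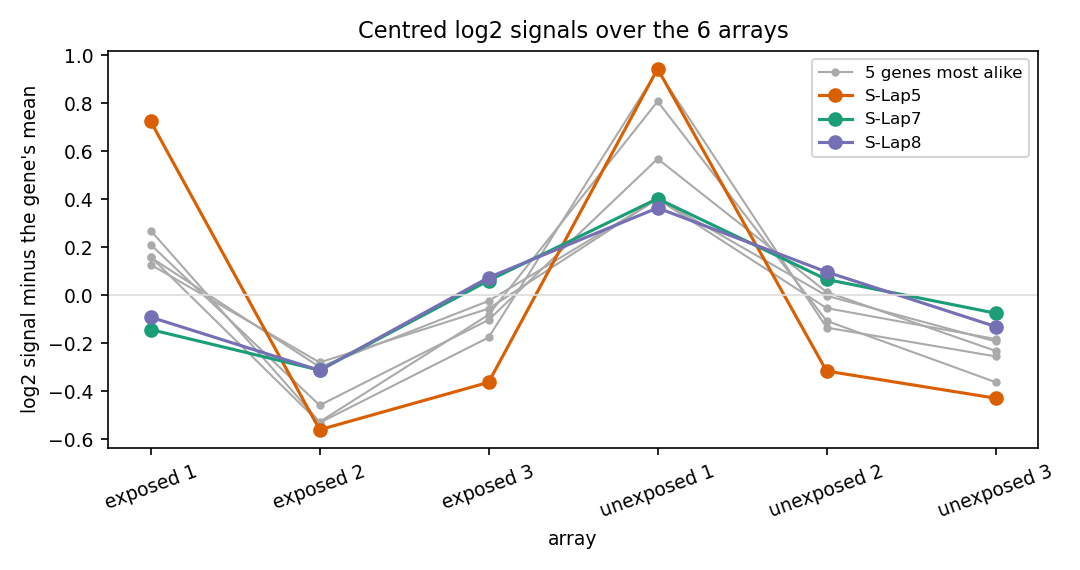
Log2 signal of each gene minus its own mean (vertical axis) on the 6 arrays (horizontal axis), with lines joining the points of a gene. S-Lap7 and S-Lap8 lie on top of each other, S-Lap5 departs from them on the replicate 1 arrays, and the 5 grey genes are those most like the mean of the 3.

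Among the arrays of replicates 2 and 3 all 3 genes had one order, from unexposed 2 through exposed 3 and unexposed 3 down to exposed 2. This order, read from the genes' own values, was found for 11.2% of all probe sets tested, for 2 of 12 spermatid and sperm markers, 2 of 5 spermatocyte markers (bol and betaTub85D) and 6 of 19 testis-specific mitochondrial genes. It crosses the treatments, as each treatment had 1 of the higher and 1 of the lower arrays. Set against the unexposed array of the other number, the log2 difference of S-Lap7 was -0.24 for exposed 2 minus unexposed 3 and 0.00 for exposed 3 minus unexposed 2. The matching differences were -0.18 and -0.02 for S-Lap8, and -0.13 and -0.05 for S-Lap5.

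The genes with the most similar pattern were found by Pearson's r over the 6 arrays with the mean centred log2 profile of the 3 members. They were CG16984 (r = 0.996), timeout, a relative of the clock gene timeless (r = 0.995), CG4691 (r = 0.994), betaTub85D (r = 0.993) and Nep1, a neprilysin peptidase gene (r = 0.989). Of the 8251 probe sets tested, 552 had an r over 0.9 with this profile, the members included. betaTub85D encodes the testis-specific beta tubulin of the sperm tail axoneme. It read 3249, 2043 and 2615 over replicates 1 to 3 of exposed males, and 4162, 2833 and 2391 over those of unexposed males. The log2 ratios of betaTub85D were -0.36, -0.47 and 0.13 in pairs 1 to 3, below 0 in the same pairs as the S-Lap genes. CG4691, an uncharacterized gene, had ratios of -0.24, -0.24 and 0.16. Both genes were picked for their likeness to the S-Lap profile on these same arrays. Their shared direction by pair follows from that choice and is not a separate result.

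The direction by pair, lower in exposed pools 1 and 2 and higher in exposed pool 3, was read from the S-Lap genes' own ratios. Its presence in 3 of 3 S-Lap genes was therefore given in advance. It was found for 29.6% of all probe sets tested. It was also found for 11 of 12 spermatid and sperm markers, 4 of 5 spermatocyte markers and 11 of 19 testis-specific mitochondrial genes. Of genes from other male reproductive tissues, 5 of 11 accessory gland markers and 0 of 4 ejaculatory duct and bulb markers had it. These lists were chosen by function, and within each of these 5 lists no gene had an unadjusted p under 0.05 from limma. As the genes of one tissue were read on the same pools, they are not independent of each other.

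**Figure D3:**
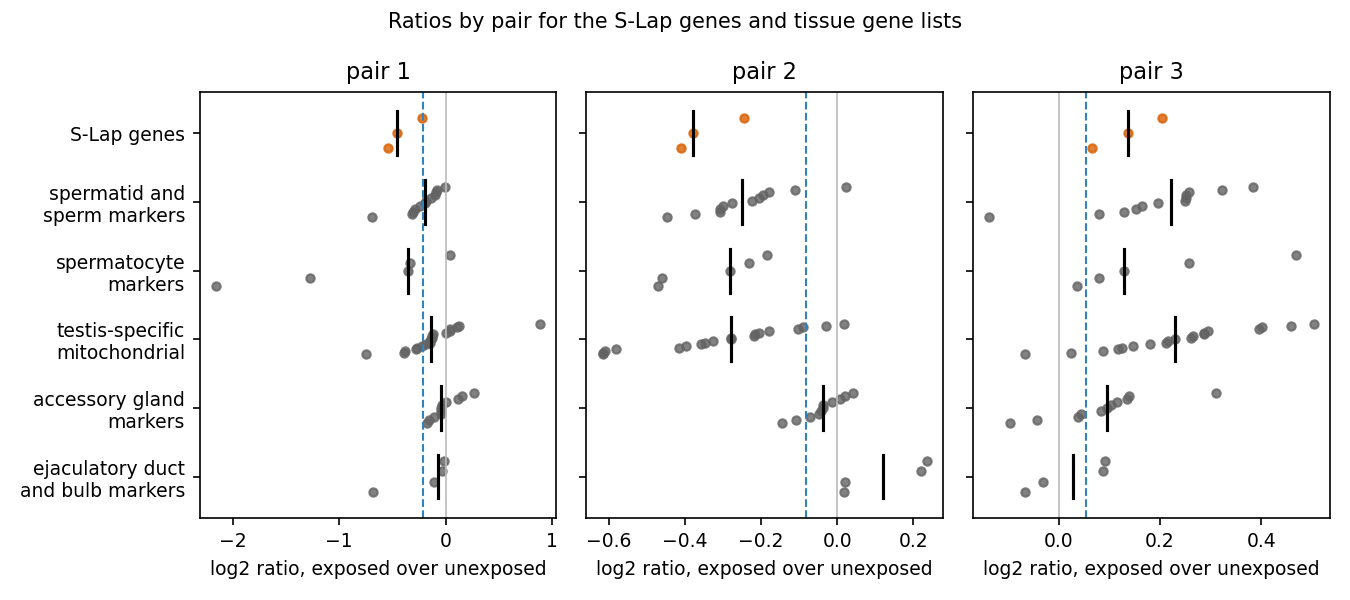
Log2 ratio of exposed over unexposed signal (horizontal axis, with its own range in each panel) for each tested gene of 6 lists in pairs 1 to 3. Black bars are list medians, the grey line marks 0 and the dashed blue line the median of all probe sets tested (-0.21, -0.08 and 0.05). The S-Lap genes and the sperm-forming lists lie mostly left of 0 in pair 2 and right of 0 in pair 3, while 0 of 4 ejaculatory duct and bulb markers lie left of 0 in pair 2.

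Spermatid and sperm markers, many of them genes for proteins of the condensing nucleus and the growing tail, are used late like the S-Laps. Of the list of 13, 12 were measured and all 12 passed the signal filter, with none at 0. Their signals summed to 36559, 34928 and 40123 over replicates 1 to 3 of exposed males, and to 42801, 40179 and 36110 over those of unexposed males. Unexposed 1 was thus the highest and exposed 2 the lowest array, as for S-Lap7 and S-Lap8. In pairs 1 to 3 the median ratio of these genes was -0.19, -0.25 and 0.22 on the log2 scale, and their median log2 fold change was -0.09. In pairs 1 and 2, S-Lap7 and S-Lap8 lay toward the low end of this list, since 1 of its 12 genes had a lower ratio than either in pair 1 and 1 of 12 in pair 2. In pair 3, 3 of 12 were below S-Lap7 and 6 of 12 below S-Lap8. S-Lap5 was mid-list in pairs 1 and 2, with 5 and 6 of 12 below it, and had 1 of 12 below it in pair 3. The brightest markers were Mst84Dc, Mst84Da, Mst84Dd and Mst87F, which encode small proteins of the sperm tail. The log2 fold change was -0.07 for Mst84Dc (standard error 0.15), -0.06 for Mst84Da (standard error 0.16), -0.14 for Mst84Dd (standard error 0.13) and 0.00 for Mst87F (standard error 0.13).

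Of the spermatocyte markers 9 of 9 were measured, 5 of 9 passed the filter and none was at 0. The sums were 4136, 4009 and 4925 over replicates 1 to 3 of exposed males, and 5765, 5212 and 4531 over those of unexposed males. betaTub85D and bol were the bulk of these sums. The median log2 fold change of the 5 was -0.23, and after betaTub85D the brightest were bol, a translation factor of meiosis, at -0.49 (standard error 0.29), mia, a meiotic arrest gene, at -0.15 (standard error 0.14) and sa, another meiotic arrest gene, at -0.72 (standard error 0.52). Without replicate 1 the values were -0.10 for bol, -0.05 for mia and 0.00 for sa. Of the early germline markers, 4 of 5 were measured and 1, zpg (a germline gap junction gene), passed the filter. Its log2 fold change of -1.32 (standard error 0.86) rests on pair 1, where its signal was 37.1 for exposed 1 and 559 for unexposed 1, while the other arrays had 440 to 528.

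Testis-specific mitochondrial genes are copies of respiratory chain, ATP synthase and other mitochondrial genes that sperm-forming cells use, and the S-Lap proteins end up in the same organelle. Of 25 genes listed, 19 were measured and all 19 passed the filter. Their median log2 ratio was -0.13, -0.28 and 0.23 in pairs 1 to 3, and -0.06 over all pairs. In pair 2, 18 of 19 were lower in the exposed pool, against 63.2% of all probe sets, and in pair 3, 18 of 19 were higher, against 59.9%. The brightest were dj (don juan, a sperm tail protein gene) at -0.09 (standard error 0.14), bb8, a glutamate dehydrogenase gene needed in spermatids, at -0.16 (standard error 0.16), ATPsynGL at -0.06 (standard error 0.13) and Porin2 at -0.01 (standard error 0.16).

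Of the relatives outside the sperm group, 2 were measured. grsm (granny smith) and Dip-B (dipeptidase B) encode aminopeptidases of the same enzyme family that are not confined to sperm. Both had lower signals on the replicate 1 arrays than on any of the other 4, with a difference of mean log2 signals of -0.74 for grsm and -0.68 for Dip-B. Such a lower signal on both replicate 1 arrays was the commoner case, found for 57.2% of all probe sets and for 9 of 19 testis-specific mitochondrial genes. Between treatments the log2 fold change was -0.23 for grsm (standard error 0.15) and -0.18 for Dip-B (standard error 0.13), with ratios in pair 3 of 0.04 and -0.11.

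The gap of S-Lap5 between replicates was the widest among the 3 genes. The mean log2 signal of its replicate 1 arrays exceeded that of the other 4 by 1.25, which is 2.38-fold. For S-Lap7 the difference was 0.19 and for S-Lap8 0.20, and exposed 1 lay within the range of the other arrays for both. The median difference over all probe sets tested was -0.59, and 14.5% of them had a larger one than S-Lap5. Quantile normalization, which gives all arrays the same distribution of signals, left S-Lap5 at 984 and 1143 on the replicate 1 arrays and at 450 to 502 on the others.

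**Figure D4:**
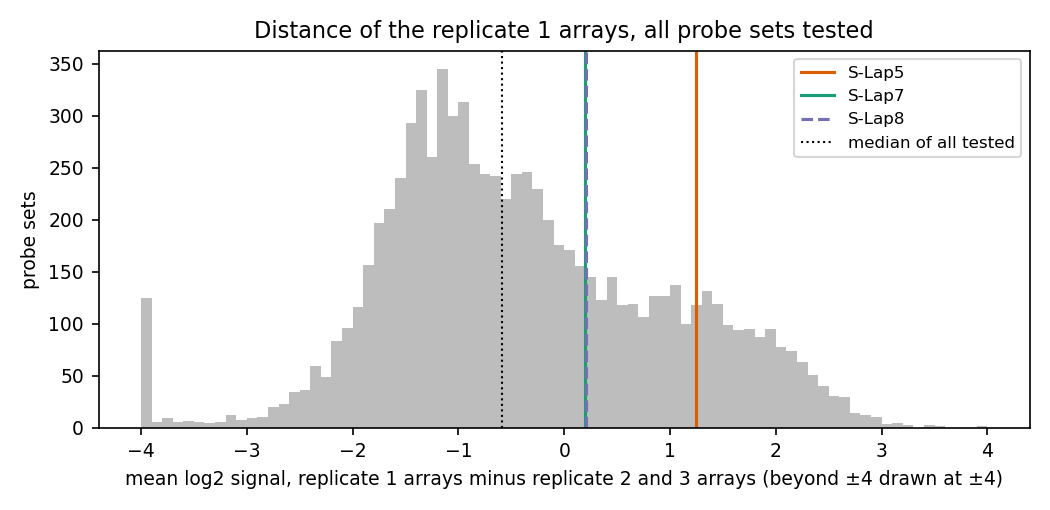
Number of probe sets (vertical axis) by the mean log2 signal of the replicate 1 arrays minus that of the replicate 2 and 3 arrays (horizontal axis), for the 8251 probe sets tested. Coloured lines mark S-Lap5 at 1.25, S-Lap7 at 0.19 and S-Lap8 at 0.20, and the dotted line marks the median of -0.59.

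Other sperm genes took either side. Both replicate 1 arrays were above the other 4 for 5 of 19 testis-specific mitochondrial genes, among them dj and ATPsynGL, and for 3 of 12 spermatid and sperm markers, shares close to the 28% of all probe sets. They were below the other 4 for 9 of 19 and 3 of 12, against 57.2% of all probe sets. Ovary markers, which should be low in males, had a summed signal of 9285 and 9200 on exposed 1 and unexposed 1 and of 3358 to 3823 on the other arrays. Of 13 such genes 12 were measured, 7 passed the filter, 5 of these 7 were above on both replicate 1 arrays, and none was at 0. The brightest were the chorion genes Cp15, Cp38 and Cp19 and the vitelline membrane gene Vm32E. Cp15 had 2255 and 2077 on exposed 1 and unexposed 1 against 668 to 802 on the others, and Cp38 had 2032 and 1933 against 391 to 498. Cp19 and Vm32E were not above on both replicate 1 arrays. In the same order Cp19 had 587 and 894 against 498 to 638, and Vm32E had 1743 and 1027 against 1010 to 1210. The oocyte genes osk and bcd did not pass the filter. Another oocyte gene, grk, passed it and was among the 5, with 250 and 308 on exposed 1 and unexposed 1 against 175 to 196 on the others. The part of these markers, the RNA controls, the control background and the labelling facility in the gap of S-Lap5 was not tested.

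Accessory gland markers, genes for seminal fluid proteins, had a summed signal of 36864 to 39697 in exposed and 36160 to 40726 in unexposed pools, with 11 of 13 measured and none at 0. Their median log2 ratio in pairs 1 to 3 was -0.04, -0.04 and 0.10, and the 4 brightest, Acp95EF, Acp63F, SP (sex peptide) and Acp36DE, had log2 fold changes between -0.06 and 0.04. Ejaculatory duct and bulb markers had 17506 to 19363 in exposed and 18153 to 18215 in unexposed pools, with 4 of 6 measured and none at 0. Their median log2 ratio was 0.12 in pair 2, where the S-Lap genes had -0.24 to -0.41. EbpII, EbpIII, Ebp and Gld had log2 fold changes of 0.03, 0.10, -0.05 and -0.17. The part of the amount of testis tissue per pool in the S-Lap ratios was not tested.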

How the data were processed

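The authors deposited, for every array, a linear intensity of each probe set, with replicates kept apart. GCOS 1.2 stands in the submitters' processing notes, and the study's methods add 2 dChip summaries to it. Which summary the table holds, and how it was scaled, is not given in the sources used here. Of 14010 rows, 44 control probe sets were left out.

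Signals under 1 were set to 1 and log2 was taken without further normalization. Probe sets that reached 100 on 3 or more of the 6 arrays (8251, the study's filter) were tested with limma 3.58.1 in R 4.3.3 (lmFit, eBayes, Benjamini-Hochberg), with the replicate number as a block because the methods describe parallel collection and a paired test. Arrays of one replicate number deviated together from the treatment means (r = 0.84, 0.76 and 0.78), which the distance of replicate 1 carries. For replicates 2 and 3 alone, the difference between the exposed arrays correlated with that between the unexposed arrays at -0.33. The signals of these arrays thus did not show the pairing by number, which remains an assumption. With the block, p-values measure the spread of the exposed minus unexposed differences between pairs, with variances moderated over all probe sets. A shift common to both pools of a replicate number is not part of that spread. The pools were of randomly grouped males. The number of arrays limits the precision.

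Probe sets were named by Entrez ID through the platform annotation and RefSeq Release 6 (12443 with 1 gene, 327 with several, 1196 with none). Arrays and gene table follow different builds, so no coordinates are printed, and no sequences were used. The planned comparison of the proteins was not made. Listed genes are represented by their brightest probe set. Named genes are the members, up to 4 of each list by highest mean signal, and the 5 most similar in profile. osk and bcd were added as defining ovary genes, and grk as a further oocyte gene of that list. Members, lists and tests were chosen with earlier results of these data known. The fit was also run on simulated signals with known shifts added to normal noise, which checks the code and not its suitability for these arrays.

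Alternatives left out the block, replicates or arrays, changed normalization, filter, low signals or variance model, took the replicate 1 arrays as a batch, or used a paired Cyber-T test (window 101, 10 prior observations), rewritten from the methods.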

Additional observations from a re-analysis of the deposited data

How the results depend on the processing

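Under 19 alternatives no S-Lap gene passed at an adjusted p under 0.05, with values from 0.705 to 1. The log2 fold change stayed below 0 in all 19 for S-Lap7 (-0.46 to -0.12) and S-Lap8 (-0.43 to -0.09). For S-Lap5 it ranged from -0.53 to 0.31, and it was above 0 with no block and without exposed 2 (0.11), exposed 3 (0.02) or unexposed 1 (0.31), where the replicate 1 gap is no longer balanced. With no replicate block the 3 values were unchanged, with standard errors of 0.54 (S-Lap5), 0.29 (S-Lap7) and 0.29 (S-Lap8). The median of the members, computed under 17 of these alternatives (not for the variance trend or Cyber-T), stayed between -0.43 and -0.09. With median centring the fold changes were -0.16 (S-Lap7), -0.11 (S-Lap8) and -0.03 (S-Lap5), as the median of all probe sets moved from -0.09 to 0.02.

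Over all probe sets, 31 were higher and 175 lower at an unadjusted p under 0.05, against 146 and 120 with quantile normalization and 127 and 102 with median centring. The count at that level was 206, against 10 with no replicate block, 373 with no filter, 467 with the replicate 1 arrays as a batch, 318 with Cyber-T, 121 to 301 with a replicate left out and the block kept, and 2 to 38 with an array left out and the block dropped, which changes both choices. At an unadjusted p under 0.001 it was 2, against 1 with no replicate block or quantile normalization, 4 with 32 added or signals under 50 set to 50, 5 with no filter or the batch, 21 with Cyber-T, 0 to 14 with a replicate left out and the block kept, and 0 to 5 with an array left out and the block dropped. At an adjusted p under 0.05 it was 0, against 1 with Cyber-T and 2 without replicate 1. The causes were not tested.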
